A study of Mus musculus with 10 samples.

Results

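The proteasome is the protein-degrading particle of the cell, and its subunits are encoded by genes whose mouse symbols start with Psma, Psmb, Psmc, Psmd or Psme. A set of 42 of the 24062 genes counted in newborn mouse pancreas was taken by symbol alone, as every gene named by 1 of these stems followed by a number. The pattern matched 45 symbols, and the immunoproteasome genes Psmb8, Psmb9 and Psmb10 were left out of the set. It held 16 core genes (8 Psma and 8 Psmb), 20 genes of the base and lid (6 Psmc and 14 Psmd), 5 activators (Psme) and Psmc3ip. Psmc3ip shares the stem but encodes a meiotic recombination factor and no proteasome subunit, so it was kept out of the 3 classes.

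RNA was measured by sequencing in the whole pancreas of 10 C57BL/6 mice at postnatal day 5, from 5 KSR23 mice and 5 wild-type (WT) littermates. KSR23 mice carried an IL-23 cassette in the ROSA26 locus, behind a floxed stop, together with a cre recombinase under the keratin 14 promoter, a promoter of keratinocytes. WT littermates served as controls. Each library held 1 mouse, and total gene counts ranged from 26830235 to 33189132 in WT and from 16715976 (KSR23 replicate 3) to 57784136 in KSR23 mice.

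The particle has a barrel-shaped core in which alpha subunits form the outer rings and beta subunits the inner ones. The regulatory cap that recognises ubiquitin-tagged proteins is built from a base, whose ATPases unfold the substrate, and a lid, which removes the ubiquitin chain. Activators of the Psme family bind the ends of the core in place of the cap. Interferon replaces the 3 catalytic beta subunits of newly made cores by inducible ones and raises Psme1 and Psme2, a form known for its part in making peptides for antigen presentation. In the pancreas, acinar cells make large amounts of secreted protein, and proteins that misfold in the endoplasmic reticulum are returned to the cytosol for degradation by proteasomes.

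Most proteasome genes differed little between KSR23 and WT pancreas. Genes below 5 counts in a library were removed, and 41 of the 42 genes were tested among 13882 genes with edgeR's quasi-likelihood test, and a gene was called at a Benjamini-Hochberg adjusted p below 0.05. Of the 41 genes, 9 were called (22.0%), beside 31.0% of all genes tested. Psme1, Psme2 and Psmd4 rose, while Psma2, Psma4, Psmb1, Psmc6, Psmd6 and Psme4 fell. Higher calls made up 16.2% and lower calls 14.8% of all genes tested. Every one of the 41 log2 fold changes (log2 FC, KSR23 against WT) was smaller than 0.5 in size, whereas 18.1% of all genes tested reached that size.

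The 41 genes had a median log2 FC of -0.06, beside -0.01 for all genes tested. In size, their median log2 FC was 0.13, against 0.22 for all genes. Since most subunit genes were well expressed, genes of like level were set beside them. Levels are given in CPM, the read count of a gene relative to the TMM-scaled size of its library, as edgeR computes it. Of the 38 proteasome genes at 10 CPM or more in WT, 9 were called, and of the 5561 genes within the same range of WT levels 36.6% were called, with a median size of 0.17. Mice of 1 group also lay close together, with a median coefficient of variation of 6.37% in WT and 5.82% in KSR23 mice for the 41 genes, beside 12.2% and 12.8% for all genes and 8.51% and 8.66% for the genes of like level. CPM of the WT and KSR23 mice did not overlap for 6 of the 41 genes (Psmb1, Psmb7, Psmd4, Psmd6, Psme1 and Psme3), beside 19.4% of all genes tested and 23.5% of the genes of like level.

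**Figure D1:**
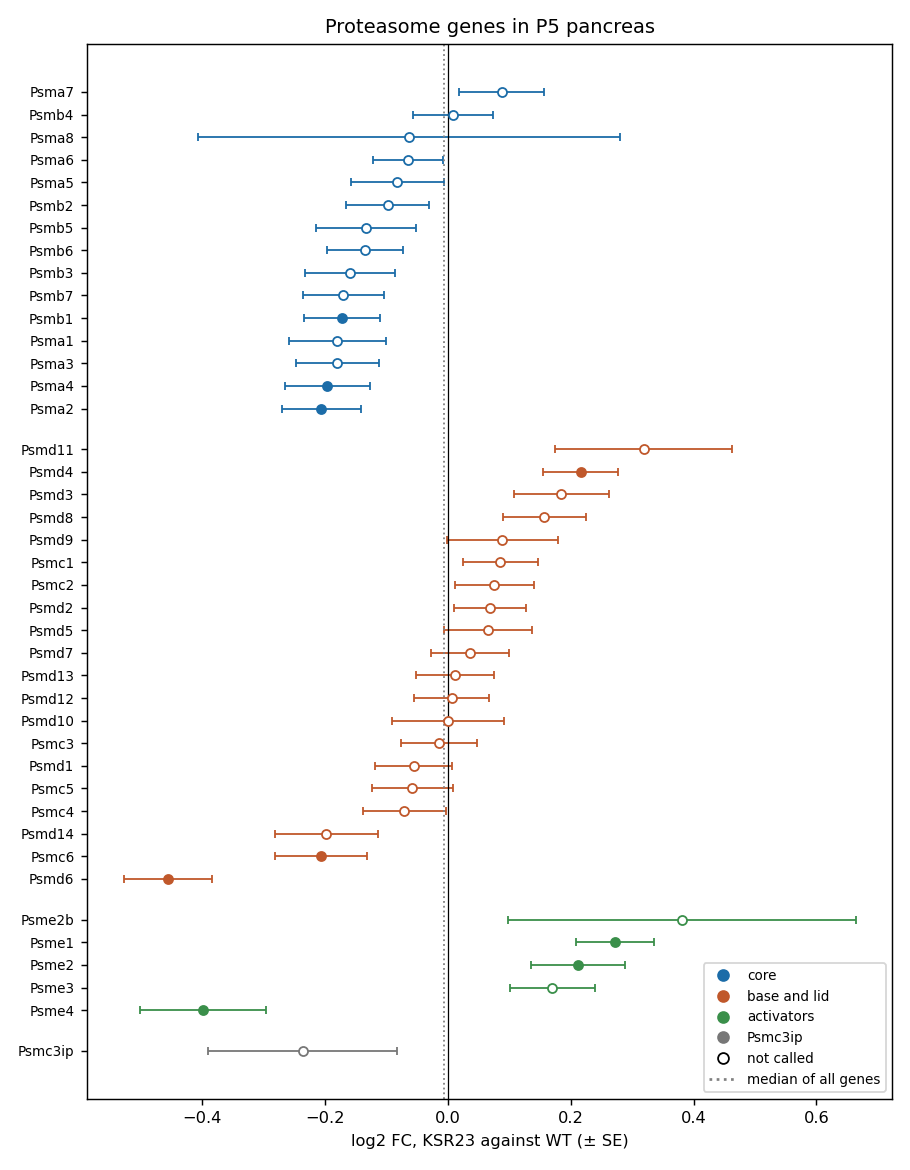
Log2 FC of KSR23 against WT for the 41 tested proteasome genes (x axis), ordered within core, base and lid, activators and Psmc3ip from the top, with bars for the SE of the edgeR fit. Filled points are the 9 called genes, open points were not called, and the dotted line marks the median of all genes tested (-0.01). 13 of the 15 core genes lie below 0, beside 50.7% of all genes tested, and Psmd6 (-0.46) and Psme4 (-0.40) lie farthest to the left.

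How many genes rose or fell depended on the scaling of the libraries. With each library scaled by its total count alone, in place of the trimmed mean of M values (TMM), the all-gene median shifted from a log2 FC of -0.01 to 0.09, and the share of higher calls among all genes called went from 52.3% to 72.6%. On that scale, 9 proteasome genes were called higher and 1 lower, whereas 3 were higher and 6 lower with TMM. Psmd4, Psmd6 and Psme1 kept their call in all 19 alternative fits. A total count is shaped in this tissue by few genes, since the 50 highest genes took 66.2% ± 0.925 of the gene counts in WT and 63.7% ± 1.42 in KSR23 mice (mean ± SD, n = 5 per group).

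Cell type markers moved between the groups as well. Of 8 acinar markers, 7 were called lower, and their summed level lay between 214225 and 233874 CPM in WT and between 128571 and 163287 CPM in KSR23 mice. All 8 were detected in every library. Of 6 ductal markers, 5 were higher, with a sum of 931 to 1044 CPM in WT and 1541 to 1702 CPM in KSR23 mice, and all 3 pan-leukocyte markers were higher, from 44.2 to 55.7 CPM in WT and from 61.7 to 104 CPM in KSR23 mice. Of the other lists, 5 of 7 endocrine markers were lower and 1 higher, 7 of 8 myeloid markers were higher, 1 of 4 tested lymphoid markers was lower, 2 of 4 endothelial markers were lower and 1 higher, and 1 of 4 stromal markers was higher. The part of these cell types in the values of the proteasome genes was not tested, and in whole tissue fewer cells of a type and less RNA per cell cannot be told apart.

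Upstream sequence is shown for 5 called genes, the 3 whose call held in every fit and the other called activators, and these were picked after their values had been seen. Each window runs from 250 bases before to 50 bases after a RefSeq gene start on GRCm38.p6 and is written from 5′ to 3′ on the strand of the gene. Psme1 (window chr14:55578244-55578543, plus strand) and Psme2 (chr14:55591052-55591351, minus strand) encode the paired subunits of the interferon-inducible activator. Psme2 has a second RefSeq window (chr14:55590972-55591271, minus strand), which is not printed. Psmd4 (chr3:95042565-95042864, minus strand) encodes a ubiquitin receptor of the base, Psmd6 (chr14:14120896-14121195, minus strand) a lid subunit, and Psme4 (chr11:30771525-30771824, plus strand) the largest activator. Capitals mark matches, read on either strand, to TGANNNNGC or to a pair of GAAA runs set 2 bases apart.
Psme1: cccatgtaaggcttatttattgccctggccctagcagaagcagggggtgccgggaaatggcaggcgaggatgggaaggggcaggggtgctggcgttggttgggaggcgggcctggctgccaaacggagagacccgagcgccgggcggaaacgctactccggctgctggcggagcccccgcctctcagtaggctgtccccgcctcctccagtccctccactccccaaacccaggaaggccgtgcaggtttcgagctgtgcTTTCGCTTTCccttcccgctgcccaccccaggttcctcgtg
Psme2: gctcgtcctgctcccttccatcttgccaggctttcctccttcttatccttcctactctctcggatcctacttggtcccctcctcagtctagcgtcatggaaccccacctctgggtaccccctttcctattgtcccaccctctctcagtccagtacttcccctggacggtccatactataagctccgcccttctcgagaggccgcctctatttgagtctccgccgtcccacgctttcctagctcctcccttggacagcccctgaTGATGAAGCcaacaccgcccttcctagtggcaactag
Psmd4: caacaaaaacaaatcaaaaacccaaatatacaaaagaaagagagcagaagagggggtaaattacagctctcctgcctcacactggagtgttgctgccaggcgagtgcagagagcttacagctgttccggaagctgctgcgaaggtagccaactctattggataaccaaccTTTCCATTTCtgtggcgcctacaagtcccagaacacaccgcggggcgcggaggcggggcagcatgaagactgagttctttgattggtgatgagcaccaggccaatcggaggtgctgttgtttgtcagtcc
Psmd6: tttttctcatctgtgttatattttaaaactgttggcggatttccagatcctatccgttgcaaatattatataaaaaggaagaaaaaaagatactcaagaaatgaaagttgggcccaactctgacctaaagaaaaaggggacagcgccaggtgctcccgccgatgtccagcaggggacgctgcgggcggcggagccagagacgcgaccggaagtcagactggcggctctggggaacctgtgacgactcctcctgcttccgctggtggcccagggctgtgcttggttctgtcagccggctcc
Psme4: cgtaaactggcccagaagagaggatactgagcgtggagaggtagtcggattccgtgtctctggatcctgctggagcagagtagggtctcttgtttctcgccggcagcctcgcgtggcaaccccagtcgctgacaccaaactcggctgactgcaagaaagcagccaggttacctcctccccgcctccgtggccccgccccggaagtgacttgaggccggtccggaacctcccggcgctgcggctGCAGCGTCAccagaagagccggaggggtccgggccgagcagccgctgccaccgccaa

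A pair of GAAA runs set 2 bases apart spells the letters of the interferon-stimulated response element, which is bound by interferon regulatory factors, and TGANNNNGC is the core of the antioxidant response element, which is bound by Nfe2l1 and Nfe2l2. The pair of GAAA runs was held by 4 of the 35 proteasome genes with a RefSeq window (11.4%; Psmb3, Psmd4, Psmd9 and Psme1), beside 3.99% of the 27025 genes with a window. With the start base as position 1, the match began at position 10 in Psme1 and at position -80 in Psmd4. TGANNNNGC was held by 20 of the 35 genes (57.1%), beside 45.0% of all genes, and by 9 of 12 core genes, 8 of 17 genes of the base and lid and 2 of 5 activators. In Psme2 this match began at position 14 in the printed window and at position -67 in the second window. The gamma-activated site TTCNNNGAA, an element of interferon-responsive genes, was found in Psmd2 alone (2.86% of the 35 genes), beside 9.55% of all genes. A CCAAT box, a general promoter element, was held by 14 of the 35 genes (40.0%) and by 41.1% of all genes. Both strands were searched, the 4 motifs were not required to be apart from each other, and a match shows only that the letters are there. The Psmd6 window held none of the 4.

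The core genes had small log2 FC, most of them below 0. Of the 15 tested, none was called higher, Psma2, Psma4 and Psmb1 were called lower and 12 were not called. The called share was 20%, beside 31.0% of all genes tested, of which 14.8% were called lower. A log2 FC below 0 was seen in 13 core genes, beside 50.7% of all genes tested. Their median log2 FC was -0.13, beside -0.01 for all genes tested. The 8 alpha genes (median -0.13) and the 7 tested beta genes (median -0.13) had like medians. With each library scaled by its total count alone, the core median was -0.04 with 10 genes below 0, and 1 core gene, Psma7, was called and in the higher direction. Between 1 and 6 core genes were called when single mice were left out, 1 without WT replicate 1, WT replicate 3, KSR23 replicate 1 or KSR23 replicate 5, 5 without KSR23 replicate 2 and 6 without WT replicate 5.

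Psmb5, Psmb6 and Psmb7 encode the 3 constitutive subunits that cut the substrate, with chymotrypsin-like, caspase-like and trypsin-like activity. Psmb5 (chr14:54614119-54618022) was at 35.4, 34.8, 34.4, 28.5 and 31.1 CPM in WT replicates 1 to 5 and at 28.8, 31.3, 29.1, 27.1 and 33.2 CPM in KSR23 replicates 1 to 5. The groups overlapped over most of their range. The means were 32.8 ± 2.92 CPM in WT and 29.9 ± 2.38 CPM in KSR23 mice (SD, n = 5), a log2 FC of -0.13 (SE 0.0812, edgeR adjusted p = 0.226).

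Psmb6 (chr11:70525367-70527858) was at 179, 167, 166, 164 and 159 CPM in the WT mice and at 144, 163, 146, 147 and 160.3 CPM in the KSR23 mice. KSR23 replicates 2 and 5 reached the WT range and the other 3 lay below it. With means of 167 ± 7.30 CPM in WT and 152 ± 8.75 CPM in KSR23 mice (SD, n = 5), the log2 FC was -0.13 (SE 0.0614, edgeR adjusted p = 0.105). For Psmb7 (chr2:38588036-38644087) the WT mice had 44.4, 42.2, 43.6, 48.5 and 42.1 CPM and the KSR23 mice 37.9, 39.1, 39.5, 38.6 and 41.2 CPM. All KSR23 mice were below all WT mice, and such a lack of overlap was seen in 19.4% of all genes tested. The log2 FC was -0.17 (SE 0.0659), from means of 44.2 ± 2.63 CPM in WT and 39.2 ± 1.21 CPM in KSR23 mice (SD, n = 5), and it missed the threshold (edgeR adjusted p = 0.0572). Part of the Psmb7 transcript lies opposite an exon of Nek6, and reads of the 2 genes could be separated only if the counting used strand, which is not given in the sources used here.

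The 3 core genes called lower have no catalytic activity of their own. Psma2 (chr13:14613240-14674236), an alpha ring subunit, was at 97.8, 100.2, 102, 101 and 87.2 CPM in WT and at 80.9, 91.5, 83.5, 84.4 and 83.0 CPM in KSR23 mice. WT replicate 5 lay within the KSR23 range and the other 4 WT mice above it. Its means were 97.6 ± 6.03 CPM in WT and 84.7 ± 4.02 CPM in KSR23 mice (SD, n = 5), and the log2 FC was -0.21 (SE 0.0642, edgeR adjusted p = 0.0209). This call was lost only with the total count as the scale (adjusted p = 0.204).

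Psma4 (chr9:54950790-54958030), also of the alpha rings, was at 68.3, 67.4, 71.6, 64.4 and 61.2 CPM in WT and 52.3, 61.9, 61.8, 58.4 and 56.6 CPM in KSR23 mice. Only WT replicate 5 fell into the range of the KSR23 mice. The gene fell by 0.20 on the log2 scale (SE 0.0686, edgeR adjusted p = 0.0371), from means of 66.6 ± 3.96 CPM in WT and 58.2 ± 3.99 CPM in KSR23 mice (SD, n = 5). Psmb1 (chr17:15475021-15499751), a structural beta subunit, was at 139.7, 125, 136, 129.7 and 125 CPM in WT and 108, 121, 118, 122 and 111 CPM in KSR23 mice. No KSR23 mouse reached the lowest WT mouse. Psmb1 fell by 0.17 on the log2 scale (SE 0.0621, edgeR adjusted p = 0.0424), with means of 131 ± 6.61 CPM in WT and 116 ± 6.06 CPM in KSR23 mice (SD, n = 5). The calls of Psma4 and Psmb1 were lost in 8 and 10 of the 19 alternative fits, with adjusted p up to 0.297 and 0.384, and most of those left out 1 mouse of either group.

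Psma3 had the lowest adjusted p of the core genes that were not called. It was at 55.5, 55.0, 56.4, 64.1 and 53.5 CPM in WT and at 50.8, 53.7, 47.8, 48.2 and 50.5 CPM in KSR23 mice, so that 1 KSR23 mouse, replicate 2, lay inside the WT range. The log2 FC of -0.18 (SE 0.0680) just missed the threshold (edgeR adjusted p = 0.0522), and the gene was called in 7 of the 19 alternative fits.

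Psma7 stood at the upper end of the core by log2 FC, with 166, 138, 141, 157 and 149 CPM in WT and 148, 172, 159.7, 149 and 169.7 CPM in KSR23 mice. The groups overlapped, with a log2 FC of 0.09 (SE 0.0691, edgeR adjusted p = 0.360). Psmb4, a structural beta subunit, had 61.5, 56.1, 61.5, 59.6 and 57.6 CPM in WT and 55.7, 56.2, 63.0, 63.0 and 60.4 CPM in KSR23 mice, and the ranges lay on top of each other (log2 FC 0.01, SE 0.0645, edgeR adjusted p = 0.939). Psma8, the alpha subunit of the testis proteasome, was barely expressed, at 0.596, 0.309, 0.386, 0.581 and 0.596 CPM in WT and 0.428, 0.770, 0.559, 0.249 and 0.411 CPM in KSR23 mice (log2 FC -0.06, SE 0.344, edgeR adjusted p = 0.910). The sign of the Psmb4 and Psma8 log2 FC changed among the alternative fits. The other core genes Psma1, Psma5, Psma6, Psmb2 and Psmb3 had log2 FC of -0.18, -0.08, -0.06, -0.10 and -0.16 and were not called. Near-identical copies elsewhere in the genome make the counts of 4 core genes uncertain, as 60.0% of the sequence of Psmb5, 60.2% of Psma5, 66.9% of Psmb3 and 78.7% of Psma3 was unique among annotated transcripts at the read length.

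Psmb11 encodes the catalytic subunit of the thymus proteasome, a form made by cells of the thymic cortex. It had 1 count in WT replicate 2 and 0 in the other 9 libraries, and was not tested. A count of 0 allows up to 3 counts, or 0.0519 to 0.179 CPM of the unscaled library total depending on the library, which covers counting error only.

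**Figure D2:**
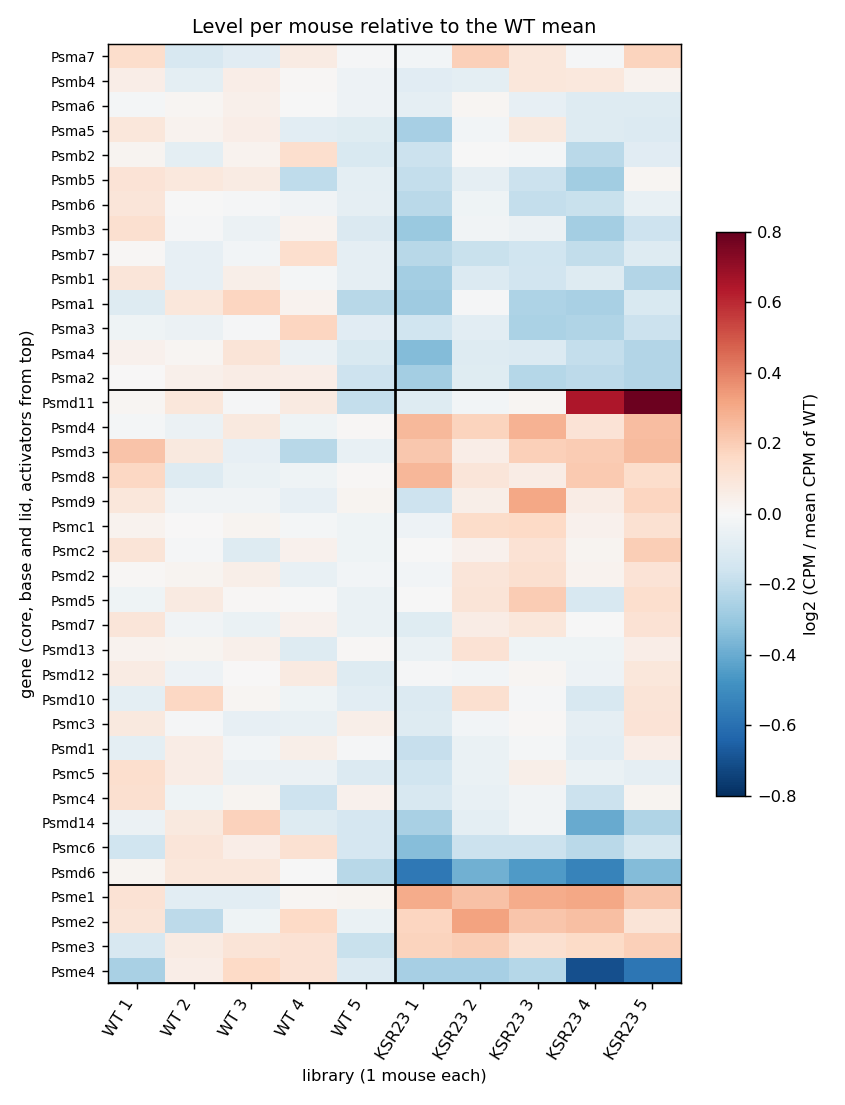
Level of 38 proteasome genes in each of the 10 libraries (columns, 5 WT left of the black line and 5 KSR23 right of it), as the log2 ratio of CPM to the WT mean of the same gene (colour, red above and blue below). Rows run by log2 FC within core, base and lid and activators, and genes under 10 CPM in WT are left out. Psmd11 is deep red in KSR23 replicates 4 and 5 alone, Psmd6 is blue and Psme1 red in all 5 KSR23 mice.

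The genes of the base and lid were called in both directions, and most had a log2 FC near 0. Of 20 tested, Psmd4 rose, Psmc6 and Psmd6 fell and 17 were not called, a called share of 15% beside 31.0% of all genes tested. The median log2 FC was 0.02, beside -0.01 for all genes tested. The 6 base ATPase genes had a median of -0.04, and the 3 chaperones that assemble the base (Psmd5, Psmd9 and Psmd10) had log2 FC of 0.07, 0.09 and 0.00, none of them called. With each library scaled by its total count alone 5 genes of the base and lid were called higher and 1 lower, and without WT replicate 1 the number called was 5.

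Psmd6, a lid subunit at chr14:14112174-14120984, had the lowest log2 FC of all 41 genes. The WT mice had 113, 118, 119, 111 and 95.5 CPM and the KSR23 mice 74.9, 85.2, 81.3, 77.0 and 87.5 CPM. The highest KSR23 mouse was below the lowest WT mouse. The means were 111 ± 9.46 CPM in WT and 81.2 ± 5.32 CPM in KSR23 mice (SD, n = 5), a fall of 0.46 on the log2 scale (SE 0.0720, edgeR adjusted p = 0.000105) to 0.729 times the WT level. Over the 19 alternative fits the log2 FC ran from -0.51 to -0.36. Neither a second gene nor an antisense gene shared its exons, and all of its sequence was unique among annotated transcripts at the read length.

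No other Psmd gene of the lid was called. Psmd14, the deubiquitinase of the lid, was at 46.3, 50.6, 54.3, 44.6 and 43.5 CPM in WT and 40.0, 45.3, 47.0, 36.2 and 40.5 CPM in KSR23 mice. The groups overlapped in the middle of their ranges. The log2 FC was -0.20 (SE 0.0839, edgeR adjusted p = 0.0811). Psmd7, the partner of Psmd14, and the lid genes Psmd8, Psmd12 and Psmd13 had log2 FC of 0.04, 0.16, 0.01 and 0.01, and none was called.

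The lid subunit Psmd3 was at 103, 92.6, 83.8, 75.4 and 84.3 CPM in WT and at 102, 91.1, 100.2, 101 and 105 CPM in KSR23 mice. WT replicate 1 stood among the higher KSR23 mice, and KSR23 replicate 2 lay below WT replicate 2. The log2 FC of 0.18 (SE 0.0776) did not pass (edgeR adjusted p = 0.0793). It was called higher without WT replicate 1 and with the total count as the scale.

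Psmd11, a lid subunit that has been linked to proteasome assembly, had the highest log2 FC of the base and lid and was not called. It was at 40.0, 42.2, 39.3, 41.7 and 34.6 CPM in WT and at 36.8, 38.9, 40.0, 61.8 and 68.3 CPM in KSR23 mice. KSR23 replicates 4 and 5 stood above every other library, and KSR23 replicates 1, 2 and 3 lay inside the WT range. The means were 39.6 ± 3.0 CPM in WT and 49.2 ± 14.7 CPM in KSR23 mice (SD, n = 5), and the log2 FC of 0.32 (SE 0.144) had a larger SE than those of the other genes of the class (edgeR adjusted p = 0.102). It ran from 0.17 to 0.40 over single mice left out.

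Psmd4 (chr3:95032694-95042614), which binds ubiquitin chains, was at 62.5, 61.2, 66.7, 61.7 and 63.6 CPM in WT and at 75.5, 71.5, 76.6, 68.1 and 75.1 CPM in KSR23 mice. Each KSR23 mouse was above each WT mouse. Psmd4 rose with a log2 FC of 0.22 (SE 0.0612, edgeR adjusted p = 0.0121), from means of 63.1 ± 2.19 CPM in WT and 73.4 ± 3.49 CPM in KSR23 mice (SD, n = 5), and the alternative fits gave 0.20 to 0.31.

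Psmc6 (chr14:45329788-45349705) was the only base ATPase called. It was at 42.7, 50.9, 49.4, 51.9 and 43.5 CPM in WT and at 37.6, 42.3, 42.4, 41.0 and 43.2 CPM in KSR23 mice. WT replicate 1 lay among the KSR23 mice and WT replicate 5 just above them. It fell by 0.21 on the log2 scale (SE 0.0744, edgeR adjusted p = 0.0420), with means of 47.7 ± 4.30 CPM in WT and 41.3 ± 2.20 CPM in KSR23 mice (SD, n = 5), and lost the call in 9 of the 19 alternative fits. The other ATPase genes Psmc1, Psmc2, Psmc3, Psmc4 and Psmc5 had log2 FC of 0.09, 0.08, -0.01, -0.07 and -0.06. The scaffold subunits of the base, Psmd1 and Psmd2, had log2 FC of -0.06 and 0.07, and no gene among these 7 was called.

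The activators were called in both directions. Of 5 tested, Psme1 and Psme2 were called higher, Psme4 was called lower, and Psme3 and Psme2b were not called. Of all genes tested 31.0% were called, 16.2% higher and 14.8% lower, and a class of 5 genes is too small for its share to be read against these. The median log2 FC of the activators was 0.21, beside -0.01 for all genes tested. Psme1 and Psme2 lie near each other on chromosome 14, at chr14:55578123-55581529 on the plus strand and chr14:55587441-55591113 on the minus strand. Psme1 was at 49.7, 43.3, 43.4, 46.5 and 46.6 CPM in WT and at 56.4, 54.0, 56.3, 56.9 and 53.6 CPM in KSR23 mice. No KSR23 mouse fell into the WT range. The log2 FC was 0.27 (SE 0.0639, edgeR adjusted p = 0.00367), from means of 45.9 ± 2.66 CPM in WT and 55.4 ± 1.51 CPM in KSR23 mice (SD, n = 5), and it ran from 0.25 to 0.37 over the alternative fits.

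Psme2 was at 45.1, 36.3, 41.0, 46.9 and 40.5 CPM in WT and at 47.2, 52.4, 49.0, 49.5 and 45.0 CPM in KSR23 mice. WT replicates 1 and 4 lay above KSR23 replicate 5, and the other 4 KSR23 mice lay above every WT mouse. With means of 42.0 ± 4.17 CPM in WT and 48.6 ± 2.76 CPM in KSR23 mice (SD, n = 5), the log2 FC was 0.21 (SE 0.0767, edgeR adjusted p = 0.0431), and the call was lost in 10 of the 19 alternative fits, with an adjusted p up to 0.118. Psme2b, a copy of Psme2 on chromosome 11 (chr11:48945354-48946190), had 0.666, 0.584, 1.12, 1.0 and 1.01 CPM in WT and 1.13, 1.16, 1.57, 1.32 and 0.661 CPM in KSR23 mice (log2 FC 0.38, SE 0.283, edgeR adjusted p = 0.330). Of the stretches of a read's length in Psme2 and Psme2b, 48.3% and 39.8% were unique among annotated transcripts, so that the counts of both genes are uncertain. Alignments without a unique place, which the count leaves out, made up 49.6% to 53.7% of the tallied alignments in WT and 38.5% to 42.5% in KSR23 mice, and their part in these values was not tested. The log2 ratio of Psme1 to Psme2 was 0.13 ± 0.105 in WT and 0.19 ± 0.0874 in KSR23 mice (mean ± SD, n = 5 per group), with overlapping ranges.

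Psme3, the activator of the nucleus, was at 67.4, 77.1, 79.1, 79.7 and 65.2 CPM in WT and at 83.4, 84.6, 80.7, 81.9 and 84.0 CPM in KSR23 mice. The 5 KSR23 mice lay close together, and all of them were above the WT mice. The log2 FC was 0.17 (SE 0.0688) from means of 73.7 ± 6.88 CPM in WT and 82.9 ± 1.62 CPM in KSR23 mice (SD, n = 5), and it did not pass over all genes (edgeR adjusted p = 0.0687).

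Psme4, an activator of the nucleus with roles in DNA repair and histone turnover (chr11:30771726-30880361), was at 31.4, 39.0, 42.0, 40.7 and 34.8 CPM in WT and at 31.2, 31.3, 32.1, 23.1 and 25.1 CPM in KSR23 mice. KSR23 replicates 4 and 5 were the lowest of all 10 libraries, and WT replicate 1 lay among the KSR23 mice. Psme4 fell by 0.40 on the log2 scale (SE 0.103, edgeR adjusted p = 0.00683), from means of 37.6 ± 4.41 CPM in WT and 28.6 ± 4.14 CPM in KSR23 mice (SD, n = 5). With the total count as the scale it missed the threshold (adjusted p = 0.0508).

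Within each library, the log2 ratio of Psme1 and Psme2 together to Psme4 was 1.23 ± 0.242 in WT (range 1.01 to 1.59) and 1.88 ± 0.210 in KSR23 mice (range 1.71 to 2.20; mean ± SD, n = 5 per group). The ranges did not overlap, and no scaling of the libraries enters such a ratio. Its terms had already been called in opposite directions in these libraries, so the lack of overlap is no further support for those calls. The log2 ratio of Psme1 and Psme2 to all core genes was -3.79 ± 0.0926 in WT and -3.44 ± 0.0777 in KSR23 mice, and here too the groups did not overlap. This ratio likewise rests on genes already called, and neither ratio was tested.

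**Figure D3:**
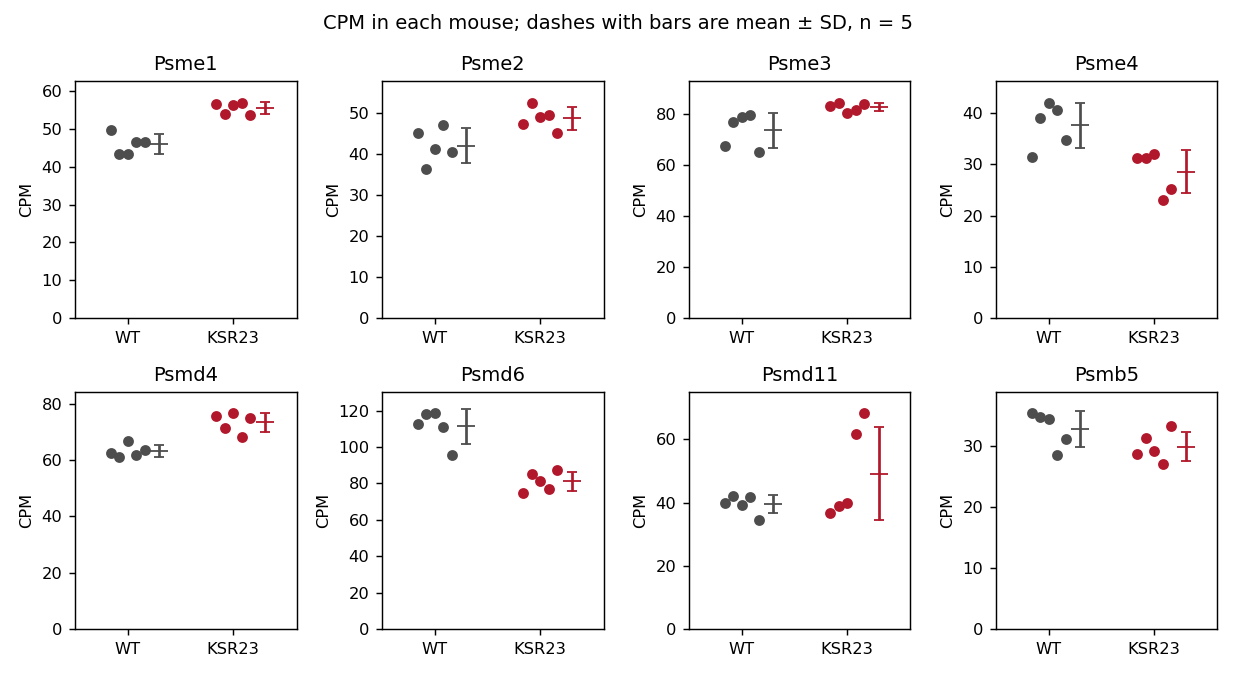
CPM (y axis, from 0) of 8 proteasome genes in each mouse, WT in grey and KSR23 in red, with the mean ± SD of 5 mice beside the points. Psme1, Psme3 and Psmd4 lie higher and Psmd6 lower in all 5 KSR23 mice, Psme2, Psme4 and Psmb5 overlap between the groups, and Psmd11 is high in KSR23 replicates 4 and 5 only.

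Psmc3ip, which encodes no proteasome subunit, had 4.46 ± 0.325 CPM in WT and 3.81 ± 0.743 CPM in KSR23 mice (mean ± SD, n = 5 per group), with a log2 FC of -0.24 (SE 0.154, edgeR adjusted p = 0.262).

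Since the 3 excluded beta subunits replace 3 of the core, each was set against the one it replaces within the same library. Psmb8 takes the place of Psmb5, and it stood at 10.4, 7.80, 9.97, 7.26 and 7.45 CPM in WT and 23.2, 21.5, 28.9, 23.4 and 21.5 CPM in KSR23 mice, with a log2 FC of 1.46 (SE 0.119, edgeR adjusted p = 3.66e-08). The log2 ratio of Psmb8 to Psmb5 counts was -1.77, -2.16, -1.79, -1.97 and -2.06 in WT and -0.31, -0.54, -0.01, -0.21 and -0.63 in KSR23 mice. Psmb8 counts thus went from 25.9% to 79.0% of those of Psmb5.

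Psmb9 takes the place of Psmb6. It was at 5.12, 4.26, 4.32, 3.61 and 3.91 CPM in WT and 8.93, 9.75, 12.4, 7.25 and 8.23 CPM in KSR23 mice, with a log2 FC of 1.12 (SE 0.148, edgeR adjusted p = 1.52e-05). The log2 ratio of Psmb9 to Psmb6 was -5.31 ± 0.137 in WT and -4.05 ± 0.309 in KSR23 mice (mean ± SD, n = 5 per group), or 2.53% and 6.02% of the Psmb6 counts.

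Psmb10, which takes the place of Psmb7, went the other way. It was at 162, 116, 120.3, 142 and 146 CPM in WT and 80.2, 89.1, 94.6, 89.6 and 99.8 CPM in KSR23 mice, with a log2 FC of -0.60 (SE 0.0877, edgeR adjusted p = 4.72e-05). The log2 ratio of Psmb10 to Psmb7 was 1.63 ± 0.191 in WT and 1.20 ± 0.0778 in KSR23 mice (mean ± SD, n = 5 per group). Psmb10 counts thus stood at 309% of those of Psmb7 in WT and at 230% in KSR23 mice. Psmb10 (chr8:105935735-105938444) and the pancreatic protease gene Ctrl (chr8:105932003-105933862) lie near each other on the minus strand. Any part of Ctrl reads in the Psmb10 counts was not tested. None of the 3 ratios overlapped between the groups, with all 5 KSR23 mice on 1 side of the WT mice. Each gave a two-sided exact permutation p of 0.00794 (Benjamini-Hochberg over the 3 ratios 0.00794), the smallest that 5 against 5 mice allow. Parts of Psmb9 and Psmb8 lie opposite exons of Tap1 and Gm20496, whose reads cannot be told apart without strand. These ratios are of counts, with no correction for transcript length, so they compare groups and not the amounts of the paired subunits.

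**Figure D4:**
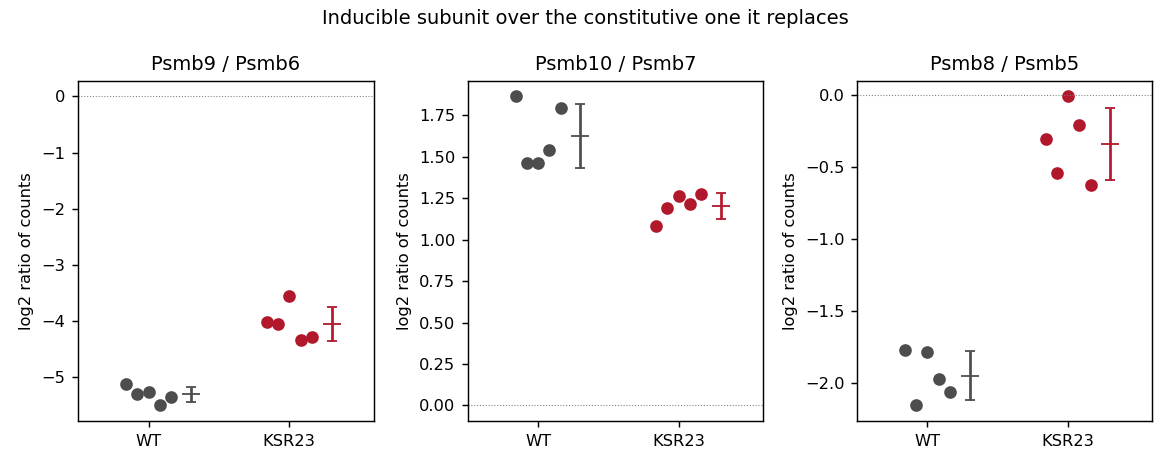
Log2 ratio of the counts of an inducible catalytic subunit to those of the constitutive subunit it replaces (y axis), in each WT mouse (grey) and each KSR23 mouse (red), with the mean ± SD of 5 mice. Psmb9 over Psmb6 and Psmb8 over Psmb5 were higher and Psmb10 over Psmb7 lower in all 5 KSR23 mice, and the groups did not overlap in any panel.

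Per length, as CPM per kilobase of the longest coding transcript, subunit genes of the same particle stood at unlike levels. Among the core genes of WT mice, Psmb6 was highest (209.4 ± 9.15 CPM per kilobase), followed by Psmb2 (143 ± 10.1) and Psma7 (130 ± 9.93), whose ranges overlapped. Among the 15 tested core genes Psma3 was lowest apart from Psma8, at 20.0 ± 1.45 CPM per kilobase (mean ± SD, n = 5 throughout). The catalytic subunit genes differed among themselves, with Psmb7 at 38.1 ± 2.26 and Psmb5 at 36.5 ± 3.25 CPM per kilobase beside Psmb6, and Psmb5 and Psmb7 did not differ beyond their spread. Reads without a unique place are not counted, and 60.0% of the sequence of Psmb5 and 78.7% of Psma3 was unique at the read length. The places of these genes are therefore uncertain, as is that of Psmb7, part of which lies opposite Nek6.

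In the base and lid Psmd6 was first in WT (80.3 ± 6.82 CPM per kilobase) and second in KSR23 mice (58.5 ± 3.84), where Psmc3 was first (66.5 ± 3.87). The 3 base chaperone and assembly genes were near the bottom, with Psmd10 at 10.1, Psmd5 at 9.92 and Psmd9 at 7.19 CPM per kilobase in WT, and Psmd11 just above them at 13.9. Among the activators, Psme2 (43.6 ± 4.34) and Psme1 (41.3 ± 2.39) did not differ beyond their spread in WT, Psme3 was at 27.7 ± 2.58 and Psme4 at 5.79 ± 0.679 CPM per kilobase. Only 48.3% of the Psme2 sequence was unique at the read length, beside 96.1% for Psme1, so the counted reads cannot show that these 2 stood at like levels. These orders rest on the transcript chosen, since by coding length Psmd8 went from place 8 to 1 and Psmd6 from 1 to 2 of the 20 genes of the base and lid, Psma2 from 12 to 5 of the 15 core genes, Psmb1 from 7 to 3 and Psme3 from 3 to 1 of the 5 activators.

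**Figure D5:**
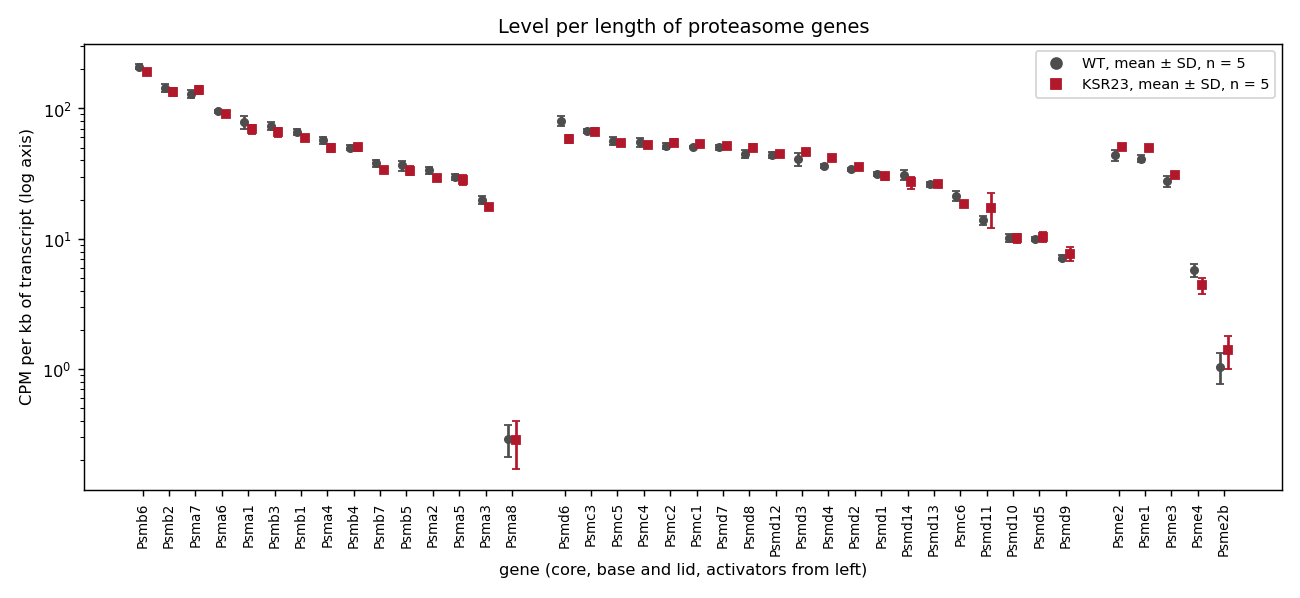
Level per length of the tested core, base and lid, and activator genes in WT (grey circles) and KSR23 mice (red squares), as CPM per kilobase of the longest coding transcript on a log axis, mean ± SD of 5 mice. Genes are ordered by WT level within core, base and lid, and activators, and of the genes shown Psmb6 is the highest and Psma8 (0.292 CPM per kilobase in WT) the lowest.

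Summed over genes, the 3 classes together took 0.275% ± 0.00685 of all gene counts in WT and 0.287% ± 0.00931 in KSR23 mice. The core took 0.118% ± 0.00246 and 0.116% ± 0.00483, the base and lid 0.138% ± 0.00524 and 0.148% ± 0.00490, and the activators 0.0193% ± 0.000653 and 0.0224% ± 0.00142. The activator share of every KSR23 mouse was above that of every WT mouse, the shares of the base and lid did not overlap by a narrow gap (WT at most and KSR23 at least 0.145%), and the core shares overlapped. With the 50 highest genes left out of the total, the core took 0.349% ± 0.0114 in WT and 0.322% ± 0.0159 in KSR23 mice, the base and lid 0.410% ± 0.00962 and 0.410% ± 0.0160, and the activators 0.0573% ± 0.00289 and 0.0617% ± 0.00231. The activator ranges overlapped on this total. Shares are means ± SD of 5 mice per group and were not tested.

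Genes that work with the proteasome were read from further lists, to be set beside the 31.0% of all genes tested that were called. Of the 2 subunit genes whose symbols lie outside the Psm pattern, the small lid subunit Shfm1 fell by 0.27 on the log2 scale (edgeR adjusted p = 0.0459) and the ubiquitin receptor Adrm1 was not called (log2 FC 0.20, adjusted p = 0.0567). The Shfm1 call was lost in 8 of the 19 alternative fits, 7 of which left out 1 mouse (WT replicate 1, 4 or 5, or KSR23 replicate 1, 2, 4 or 5), with an adjusted p up to 0.183. Of 5 assembly factors, Psmg1, a chaperone of the alpha ring, fell by 0.23 (adjusted p = 0.0232; lost in 3 of the 19 alternative fits, with an adjusted p up to 0.203) and the other 4 were not called. None of 7 regulators that bind the proteasome, among them the deubiquitinases Usp14 and Uchl5, was called, and neither was any of the 4 ubiquitin genes.

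Of 8 tested genes that act on the transcription of proteasome genes, 4 were called higher, 1 was called lower and 3 were not called. The called share was 62.5%, beside 31.0% of all genes tested. Sel1l, a part of a ubiquitin ligase of the endoplasmic reticulum, fell by 0.35 on the log2 scale (SE 0.0789, edgeR adjusted p = 0.00249). Irf1, Nfe2l1 and Syvn1 were among the genes that rose, with log2 FC of 1.12, 0.45 and 0.38, and were named after their values were seen. Nfe2l2, Ddi2 and Ngly1 were not called (Nfe2l2 log2 FC 0.17, edgeR adjusted p = 0.131). Nfe2l1 encodes the factor that raises proteasome genes when proteasome activity is short, and it was at 27.1 ± 2.82 CPM in WT and 36.9 ± 2.82 CPM in KSR23 mice (mean ± SD, n = 5 per group; edgeR adjusted p = 0.000593).

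Of 7 genes of the ubiquitin-activating enzymes and of the p97 complex, which extracts ubiquitin-tagged proteins from membranes, the p97 cofactors Nploc4 (log2 FC 0.27, edgeR adjusted p = 0.00816) and Ufd1l (0.25, adjusted p = 0.00879) rose and 5 were not called. Of 5 tested shuttle factors, which carry substrates to the proteasome, Ubqln4 rose (log2 FC 0.25, adjusted p = 0.0111) and 4 were not called. The called shares of these 2 lists, 28.6% and 20.0%, were no higher than the 31.0% of all genes tested.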

How the data were processed

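The authors amplified oligo-dT-primed cDNA from 100 pg of total RNA per pancreas, sequenced single-end reads without molecular identifiers, and used TopHat 2.1.0 (genome mm10) and HTSeq 0.6.1p1, as the submitters' processing notes name them. The deposited files hold raw read counts per gene. The gene annotation and the strand setting are not given in the sources used here. Rows that name no gene stayed out of library sizes and tests. Of the tallied alignments, 38.5% to 53.7% had no unique place, 2.69% to 3.28% no feature and 0.490% to 0.653% an ambiguous one.

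Members were found by symbol, and the members and gene lists were chosen with earlier results of these data known. From the deposited counts, genes with 5 or more counts in each of the 10 libraries were fitted in edgeR 4.0.16 (R 4.3.3) with TMM scaling and the quasi-likelihood test, KSR23 against WT, and p-values were adjusted over all 13882 genes by Benjamini-Hochberg. CPM were computed on TMM-scaled library sizes. The SE is the size of the log2 FC divided by the root of F. Libraries of 1 group differed by more than sampling noise (chi-square per degree of freedom at least 11.4). Exact permutation tests of the 3 ratios of inducible to constitutive subunits went over all assignments of the 10 mice. Named genes were the catalytic subunits, all activators, the 3 largest and 3 smallest log2 FC of the core and of the base and lid, genes without overlap, genes not tested, the immunoproteasome genes and the called extremes of the other lists, of which 1 gene is not reported here.

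Alternatives were a likelihood ratio test, DESeq2 1.42.0, other scalings and filters, a replicate block and each mouse left out. Positions and lengths are those of GENCODE M21 on GRCm38, and promoter windows were read for 35 of the 42 members from RefSeq. Lists used Shfm1, AI314180 and Ufd1l, the symbols of the files, for Sem1, Ecpas and Ufd1. On simulated counts with 14360 genes tested, 0 of 48 genes with a true log2 FC of 0.2 were called, 29 of 49 at 0.5 and 45 of 45 at 2, and 5 of 123 calls were false. Every one of the 41 tested members had a log2 FC below 0.5 in size. Few genes were changed in the simulation, whereas 31.0% of all genes tested were called in the data. The members also had a smaller median SE (0.068) than all genes tested (0.119). The simulation therefore cannot give the share of member changes that were missed, and a member not called is not shown to be unchanged.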

Additional observations from a re-analysis of the deposited data

Results flagged for a closer look

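Among 98 groups of 5 mice, 5 held 1 mouse far from the other 4 by Dixon's 95% criterion, and chance alone gives about 4.90. Psma2 in WT replicate 5 was at 87.2 CPM, where the other WT mice were at 97.8 to 102 CPM. Psma3 in WT replicate 4 was at 64.1 CPM, above the other WT mice at 53.5 to 56.4 CPM. Psmd13 in WT replicate 4 was at 48.4 CPM, below the others at 52.4 to 53.6 CPM. Psmb11 in WT replicate 2 was at 0.0343 CPM, a single count, with 0 in the other WT mice. The base and lid took 0.157% of the gene counts in KSR23 replicate 3, the library with the fewest counts, and 0.145% to 0.148% in the other KSR23 mice.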

How the results depend on the processing

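Of the 9 called members, Psmd4, Psmd6 and Psme1 kept their call in all 19 alternatives, and no result of the fits reversed past a threshold. Of the 32 members not called, 10 were called in at least 1 alternative and 11 changed sign in at least 1. The number of members called was 9, and it was 5 with a replicate block and 5 to 12 with single mice left out, the 5 without WT replicate 3. For the core (3 called) it was 5 with DESeq2, 5 with a library size without the 50 highest genes, 1 with the library size alone, 1 with the replicate block and 1 to 6 with single mice left out. For the base and lid (3 called) it was 6 with the library size alone and 2 to 5 with single mice left out, the 5 without WT replicate 1. For the activators it stayed between 2 and 3. The KSR23 minus WT difference in share of gene counts went, without the 50 highest genes in the total, from -0.0011 to -0.0269 percentage points for the core, from 0.0101 to -8.7e-05 for the base and lid and from 0.0120 to -0.0226 for the 3 classes together. The cause of these changes was not tested beyond the change in the total itself. Replicate numbers did not pair the mice: same-numbered libraries had correlations of deviations from -0.11 to 0.07, and 1 of 10 correlated best with its own number. With the replicate block the number of all genes called was 3749, against 4299. Changes near 0.2 on the log2 scale are at the limit of what 5 mice per group resolve here.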
